A study of Homo sapiens with 12 samples.

Results

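The 50 genes described here encode nucleolar proteins that build ribosomes, chosen by name as a functional set with earlier results of these data known. They were looked up in the gene column of 6 RIP-seq peak lists from HepG2 cells, a human liver cancer cell line. Of the 50 genes, 47 had at least 1 peak in any of the 6 lists, which together name 10830 genes. RIP-seq (RNA immunoprecipitation and sequencing) precipitates a protein with the RNA cross-linked to it, and a peak is a stretch of exons with more reads in the precipitate than in the input RNA. The study asked which transcripts METTL16, an RNA m6A methyltransferase, and the translation initiation factors eIF3a and eIF3b bind. The series holds 12 samples, made of 6 precipitates with 1 peak list each and 6 inputs, which entered only through the authors' peak calls.

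HepG2 cells stably infected with 3XFlag-METTL16 (vector pmiRNA1), 3XFlag-eIF3a or 3XFlag-eIF3b (both in pSIN4) were cross-linked with ultraviolet light, lysed and sonicated, and 2 replicates were made for each protein. All 3 proteins were therefore overexpressed, no treatment was applied, and no list from a control antibody or from untagged cells was used here. The labels name a Flag antibody for METTL16 and eIF3b and an eIF3a antibody for eIF3a, while the deposited names of all 6 lists carry the word flag, so that for eIF3a the protein and the antibody cannot be told apart. A gene is called bound by a protein below when it had a peak in both of its replicate lists. A peak requires RNA in the cell as well as enrichment, and the lists give neither counts nor levels, so the depth is unknown and a missing peak does not show that the transcript was unbound.

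Ribosome assembly starts in the nucleolus, where RNA polymerase I transcribes the ribosomal RNA precursor. Small nucleolar RNPs modify the precursor, box C/D particles by ribose methylation and box H/ACA particles by pseudouridylation. The SSU processome then folds and cleaves the small subunit part, and a separate set of factors matures the large subunit before both are exported. Fast-growing cells such as liver cancer cells make these factors in quantity, and several of the proteins, nucleolin among them, carry long stretches of charged residues.

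The sequences below are coding stretches that lay under a peak in all 6 lists, and they show the purine-rich stretches found in most, though not all, of the genes with such bases. Each is the longest such stretch of its gene in 1 exon, read 5′ to 3′ on the strand of the gene from the GRCh38 genome, and capitals mark runs of at least 8 purines (A or G). They come from NOP58 exon 14 (chr2:202302921-202303057, plus strand), MDN1 exon 89 (chr6:89658819-89658917, minus strand), NOLC1 exon 10 (chr10:102160877-102161086, plus strand), RRP12 exon 27 (chr10:97366775-97366909, minus strand) and, as the contrast with the fewest purines, POLR1A exon 25 (chr2:86040431-86040551, minus strand).
NOP58: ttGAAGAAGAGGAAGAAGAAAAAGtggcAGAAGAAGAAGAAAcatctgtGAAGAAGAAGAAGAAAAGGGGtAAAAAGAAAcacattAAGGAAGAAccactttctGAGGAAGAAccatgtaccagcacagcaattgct
MDN1: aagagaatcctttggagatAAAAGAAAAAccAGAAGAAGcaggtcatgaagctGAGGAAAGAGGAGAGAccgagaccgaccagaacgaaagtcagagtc
NOLC1: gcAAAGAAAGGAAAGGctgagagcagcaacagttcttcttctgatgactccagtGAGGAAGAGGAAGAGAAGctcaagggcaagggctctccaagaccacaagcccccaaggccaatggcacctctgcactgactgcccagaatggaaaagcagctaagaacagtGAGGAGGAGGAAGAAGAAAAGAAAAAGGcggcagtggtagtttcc
RRP12: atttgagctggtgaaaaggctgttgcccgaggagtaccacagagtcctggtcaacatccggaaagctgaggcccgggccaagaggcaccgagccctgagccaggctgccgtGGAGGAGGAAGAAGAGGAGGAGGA
POLR1A: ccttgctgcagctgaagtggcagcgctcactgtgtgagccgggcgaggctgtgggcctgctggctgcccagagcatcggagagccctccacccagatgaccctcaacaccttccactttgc
The NOP58 and MDN1 stretches were 74.5% and 73.7% purine, NOLC1 65.7% and RRP12 64.4%, against 46.3% in POLR1A. The coding sequences of the whole genes held 60.1% purine in NOP58, 53.6% in MDN1, 59.1% in NOLC1, 52.2% in RRP12 and 53.5% in POLR1A.

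The lists held 12921 to 21733 peaks on 5198 to 8123 genes. The second eIF3a list was the shortest and named 24 of the 50 genes, where the first named 42. All 7 liver markers (ALB, AFP, APOA1, APOB, TF, SERPINA1 and HNF4A) had a peak in at least 1 list and 2 of them in all 6. Of protein coding genes 53.6% and 13.6% did so, and a peak is not an RNA level. That the replicates were separate cultures rests on the study's methods, which call them biological, and with 2 lists for each protein an exact permutation test between proteins cannot give a p below 0.333.

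Most of the 50 genes had peaks for each of the 3 proteins. METTL16 lists named 35 and 33 of the 50, beside 29% and 31.4% of all 20007 protein coding genes. eIF3a lists named 42 and 24, beside 40.5% and 25.9%, and eIF3b lists named 42 and 41, beside 40% and 37.6%. The members' share exceeded the background in every list, as a description, since the genes were chosen with earlier results known.

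Bound in both replicates were 29 of 50 genes for METTL16 (58%), where the same rule called 22.9% of protein coding genes and 42.6% of the 10760 annotated genes that the names with a peak in any list matched. For eIF3a 23 of 50 were bound (46%), beside 22.8% and 42.5%, and without its second list 42 of 50 had a peak. For eIF3b 37 of 50 were bound (74%), beside 32.2% and 60.1%. All 3 proteins bound 20 of the 50 (40%), beside 13.6% and 25.3%, and any list named 94% of the 50 against 53.6% of protein coding genes. Measured against genes with a peak somewhere, the share for eIF3a was thus near the background. When only peaks with a fold enrichment of at least 4 were counted, METTL16 bound 8 genes, eIF3a 3 and eIF3b 11 of the 50, beside 9.63%, 7.68% and 13.3% of protein coding genes. The eIF3a count was then a smaller share than that background. Of the 10725 protein coding genes with a peak in any list, 1926, 1536 and 2666 passed the same rule. Beside these, all 3 member counts were smaller shares, those of METTL16 and eIF3b by little. Members with a peak also reached 4-fold less often than all genes with a peak in every list, in 42.9% against 50.6% and 39.4% against 52.8% for METTL16, 19.0% against 50% and 3 of 24 genes against 45.3% for eIF3a, and 50% against 56.9% and 43.9% against 50.1% for eIF3b.

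Most list pairs shared most of their members. All 35 members of the first METTL16 list were also in the first eIF3b list, which is 83.3% of the 42 members there, and 29 of the 33 in the second METTL16 list were in the second eIF3b list, 70.7% of its 41. The first eIF3a list held 33 of those 35, and it shared 39 of its 42 members with each eIF3b list. The members of both lists as a share of those in either were 0.833 and 0.644 for the first and second METTL16 and eIF3b lists, where all genes gave 0.634 and 0.537, and 0.867 and 0.886 for the first eIF3a list with the eIF3b lists, where all genes gave 0.692 and 0.718. The second eIF3a list gave 0.535 and 0.585 with the eIF3b lists, nearer to the 0.513 and 0.534 of all genes. No member was bound by METTL16 and eIF3a without eIF3b, and none by eIF3a alone. METTL16 and eIF3b without eIF3a bound 6 (FBL, NPM1, PNO1, NOP16, RRP1 and NIP7), METTL16 alone 3 (RRP9, NOB1 and EBNA1BP2), eIF3a and eIF3b without METTL16 3 (UTP14A, NOL10 and LTV1), eIF3b alone 8, and no protein 10. These classes follow the both-replicates rule, and each of the 6 genes in the first had a peak in the first eIF3a list. RRP9, NOB1 and EBNA1BP2 each had a peak in the first eIF3b list, and RRP9 also in the first eIF3a list. UTP14A and NOL10 had one in the first METTL16 list. Each of the 8 genes bound by eIF3b alone had one in the first eIF3a list. The classes thus do not show binding by 1 protein only. Among the 91 further ribosome biogenesis genes described below, METTL16 and eIF3a without eIF3b also bound none, and eIF3a alone bound 2. There METTL16 and eIF3b without eIF3a bound 11, METTL16 alone 8, eIF3a and eIF3b without METTL16 8, eIF3b alone 12, and no protein 33. The near absence of eIF3a without eIF3b was therefore not particular to the members. The shares of these classes over all genes were not computed.

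Fold enrichment was modest and p-values were small. The median of each member's highest fold enrichment was 3.51 and 3.25 in the METTL16 lists, 2.7 and 2.17 in the eIF3a lists, and 3.99 and 3.67 in the eIF3b lists. Over all genes with a peak the medians were 4.07, 4.24, 4, 3.62, 4.63 and 4 in the same order, so members lay below them in all 6 lists. By p-value the order turned, with members at a median percentile among the genes of the list of 75.4, 75.5, 75.4, 45.8, 84.2 and 80.6, all but the second eIF3a list above the middle. No counts were at hand to set beside this difference.

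**Figure D1:**
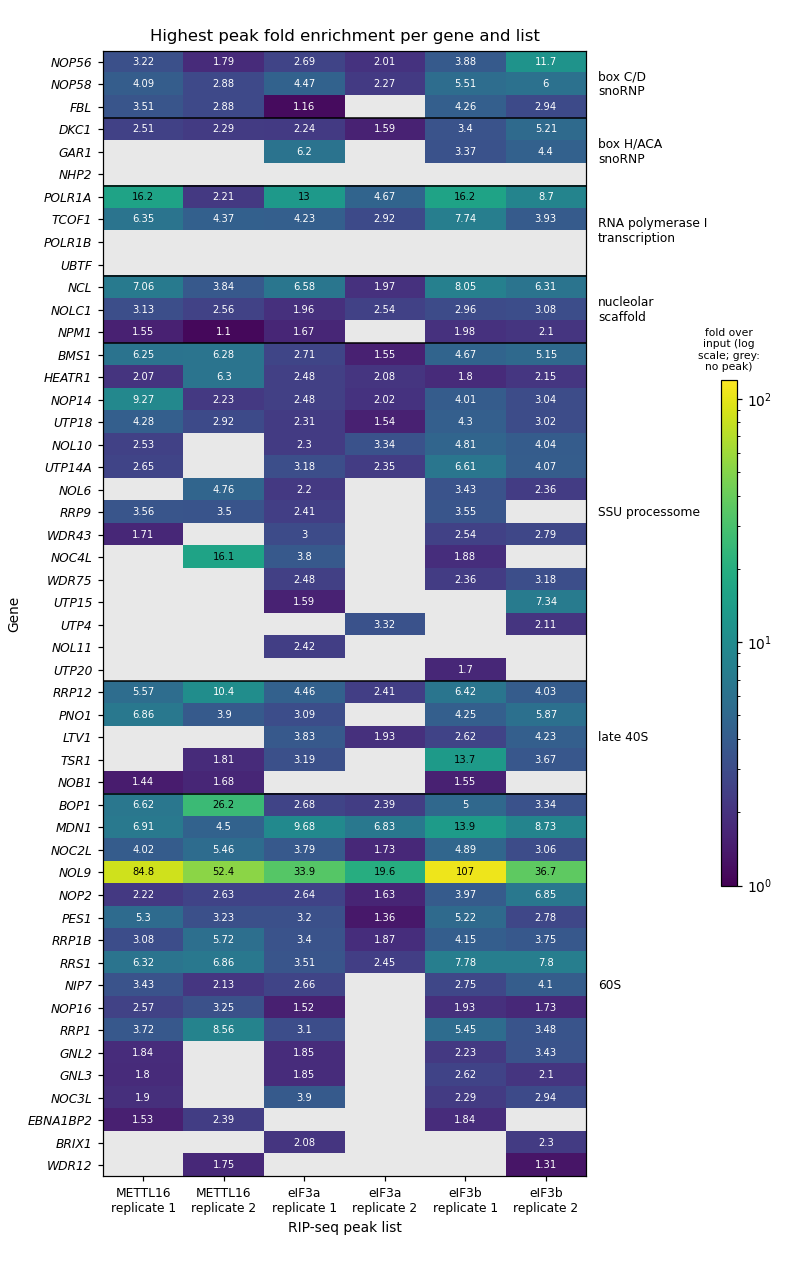
Highest fold enrichment over input of any peak on each of the 50 genes (rows, grouped by role) in each of the 6 peak lists (columns), on a log color scale with the value printed in each cell; grey cells have no peak. The second eIF3a column holds the fewest values (24), NOL9 stands out in every column, and NHP2, POLR1B and UBTF are grey throughout.

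The box C/D proteins were all bound by METTL16 and eIF3b. FBL is the ribose methyltransferase of these particles, and NOP56 and NOP58 are their core scaffold. NOP58 had exactly 1 peak in each list, always over the last exons, with a fold enrichment of 4.09 and 2.88 in the METTL16 lists, 4.47 and 2.27 in the eIF3a lists, and 5.51 and 6 for eIF3b. The 6 peaks began in exon 11, 12 or 13 and all ended in exon 15, the last, so the position repeated in every list even though the fold ranged from 2.27 to 6. NOP56 had a highest fold of 3.22 and 1.79 for METTL16, 2.69 and 2.01 for eIF3a, and 3.88 and 11.7 for eIF3b. The second eIF3b value stood apart and came from a peak over exons 1 to 5 with a log10 p of -33.3. FBL reached 3.51 and 2.88 for METTL16 and 4.26 and 2.94 for eIF3b, within exons 1 to 4, but 1.16 in the first eIF3a list, over 61 bases of exon 8, and had no peak in the second. The 4 FBL peaks that began at exon 1 also held bases outside its annotated exons.

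Among the box H/ACA proteins only DKC1, the pseudouridine synthase, was in all lists, with a highest fold of 2.51 and 2.29 for METTL16, 2.24 and 1.59 for eIF3a, and 3.4 and 5.21 for eIF3b. GAR1 had no METTL16 peak, and its values were 6.2 in the first eIF3a list and 3.37 and 4.4 in the eIF3b lists. Those GAR1 peaks covered 60 to 118 bases, had log10 p-values no lower than -3.7, and lay on exons 5 to 6 for eIF3a and on exons 1 to 2, 5 or 6 to 7 for eIF3b. NHP2 had no peak in any list.

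Of the RNA polymerase I genes, POLR1A, the largest subunit, and TCOF1, treacle, a cofactor of ribosomal RNA transcription, had peaks in all 6 lists, while the subunit POLR1B and the upstream binding factor UBTF had none. TCOF1 had 6 and 6 METTL16 peaks, 8 and 8 eIF3a peaks, and 4 and 7 eIF3b peaks. They covered 53.0% and 51.2%, 53.0% and 28.7%, and 67.2% and 54.2% of its canonical transcript, so that the second eIF3a list covered clearly less of it than the other lists. Its highest fold was 6.35 and 4.37 for METTL16, 4.23 and 2.92 for eIF3a, and 7.74 and 3.93 for eIF3b, with the second list lower for each protein.

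POLR1A, which is described although it was picked after its values were seen, had its strongest peak in the 3′ UTR in 5 of 6 lists. At chr2:86024806-86025136 (exon 34) the first METTL16 list gave 16-fold, and overlapping peaks gave 13 and 4.67 in the eIF3a lists and 16 and 8.7 in the eIF3b lists. The second METTL16 list had no peak there and reached 2.21-fold, in coding exons 21 to 22. Every list also had a coding peak that covered part of exons 25 and 26 of POLR1A, at 1.74 to 3.72-fold.

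The nucleolar scaffold group held the 2 genes that ranked highest by p. NCL (nucleolin) ranked highest of the 50, at a median percentile of 99.9 by p, with a log10 p of -747 and -328 for METTL16, -1310 and -129 for eIF3a, and -2440 and -1250 for eIF3b. Its highest fold was 7.06 and 3.84, 6.58 and 1.97, and 8.05 and 6.31. NPM1 (nucleophosmin) came next at a median percentile of 97.4, counting the list without a peak as 0, and its fold enrichment was low, at 1.55 and 1.1 for METTL16, 1.67 in the first eIF3a list, and 1.98 and 2.1 for eIF3b, and had no peak in the second eIF3a list. Of its 5 peaks 4 ran from exon 5 to exon 9 or 10, and the fifth was 60 bases of exon 6. NPM1 has many processed pseudogenes of near-identical sequence, and how reads that match several copies were handled is not given in the sources used here, so its values are uncertain. NOLC1, a chaperone of small nucleolar RNPs, had 3.13 and 2.56 for METTL16, 1.96 and 2.54 for eIF3a, and 2.96 and 3.08 for eIF3b.

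Of the 15 SSU processome genes METTL16 bound 5 (33.3%), eIF3a 6 (40%) and eIF3b 9 (60%). These shares lay above those of protein coding genes (22.9%, 22.8% and 32.2%) and no higher than those of genes with a peak in any list (42.6%, 42.5% and 60.1%). Of the 15 genes 4 were bound by all 3 proteins, namely UTP18, HEATR1, NOP14 and BMS1, and every one of the 15 had a peak in some list. BMS1, the GTPase of the processome, had 6.25 and 6.28 for METTL16, 2.71 and 1.55 for eIF3a, and 4.67 and 5.15 for eIF3b. The METTL16 and eIF3b values of BMS1 lay above both eIF3a values, and BMS1 also has pseudogene copies that could share reads. WDR75, a subunit of the UTP-A complex that opens processome assembly, had no METTL16 peak, and its peaks over exons 12 to 21 reached 2.48 in the first eIF3a list and 2.36 and 3.18 in the eIF3b lists. UTP20 had peaks only in the first eIF3b list, at 1.7-fold in exon 21 and 1.61-fold in exon 22, and NOL11 had 1, at 2.42-fold in exon 1 in the first eIF3a list.

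Of the 5 late 40S factors METTL16 bound 3 (60%), eIF3a 2 (40%) and eIF3b 4 (80%). The shares over genes with a peak in any list were 42.6%, 42.5% and 60.1%, and 5 genes are few to set beside them. RRP12, a processing and export factor, had 5.57 and 10.4 for METTL16, 4.46 and 2.41 for eIF3a, and 6.42 and 4.03 for eIF3b, and every list covered exons 26 to 27. LTV1, which leaves the pre-40S particle late, had no METTL16 peak, and reached 3.83 and 1.93 for eIF3a and 2.62 and 4.23 for eIF3b. All 4 eIF3 lists placed that LTV1 peak on exons 10 to 11, the last of the gene, and 2 other protein coding genes annotated on the same strand overlap LTV1. NOB1, the endonuclease that makes the 3′ end of 18S ribosomal RNA, had 1.44 and 1.68 for METTL16, no eIF3a peak, and 1.55 in the first eIF3b list.

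The 60S factors were bound most often among the larger groups, 12 of 17 by METTL16 (70.6%), 8 by eIF3a (47.1%) and 14 by eIF3b (82.4%). The same rule called 22.9%, 22.8% and 32.2% of protein coding genes. Of genes with a peak in any list it called 42.6%, 42.5% and 60.1%, so the eIF3a share was near that background. PES1, BOP1 and WDR12 form the PeBoW complex of 60S maturation, and the 3 transcripts differed. PES1 had 5.3 and 3.23 for METTL16, 3.2 and 1.36 for eIF3a, and 5.22 and 2.78 for eIF3b. Of the 6 lists 5 covered its exons 12 to 15, while the second eIF3a list had only 61 bases of the 3′ UTR at a percentile of 0.924 by p, so PES1 counted as bound by eIF3a on a peak at the bottom of that list. BOP1 had 6.62 and 26.2 for METTL16, 2.68 and 2.39 for eIF3a, and 5 and 3.34 for eIF3b. Every list had a BOP1 peak over exons 11 and 12, and the 4 METTL16 and eIF3b lists also had a peak over exons 1 to 2 (6.62, 26.2, 2.85 and 2.03-fold) that neither eIF3a list had. WDR12 had 1.75 over 149 bases in the second METTL16 list, 1.31 over 61 bases in the second eIF3b list, and nothing elsewhere.

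MDN1, the AAA ATPase that strips assembly factors from the pre-60S particle and the longest of the 50 transcripts at 18485 bases and 102 exons, had 3 and 6 METTL16 peaks, 14 and 10 eIF3a peaks, and 15 and 14 eIF3b peaks. Its highest fold was 6.91 and 4.5, 9.68 and 6.83, and 13.9 and 8.73, and peaks over exons 88 and 89 were in all 6 lists. The strongest MDN1 peak covered exons 88 and 89 in 4 lists, and lay in exon 63 in the second METTL16 list and over exons 14 to 24 in the second eIF3a list. RRP1B had 3.08 and 5.72, 3.4 and 1.87, and 4.15 and 3.75, with peaks on exon 13 in all lists. NOC2L had 4.02 and 5.46, 3.79 and 1.73, and 4.89 and 3.06, with exons 15 to 16 covered in all lists. For both genes the second eIF3a value was the lowest of the 6. EBNA1BP2 had 1.53 and 2.39 for METTL16, no eIF3a peak, and 1.84 in the first eIF3b list.

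NOL9, the polynucleotide kinase that acts at the internal spacer cut of the precursor, had by far the highest fold enrichment, and it was singled out after its values were seen. It reached 84.8 and 52.4 for METTL16, 33.9 and 19.6 for eIF3a, and 107 and 36.7 for eIF3b, all in exon 12, which holds the 3′ UTR. No other member passed 26.2 in any list. Every list had 2 or more peaks in that UTR, and 211 bases of it at chr1:6524762-6524972 (minus strand) lay under a peak in all 6 lists. The smallest log10 p of NOL9 ran from -4.57 in the second eIF3a list to -82.6 in the first eIF3b list, at a median percentile of 80.6, so NOL9 was first of the 50 by fold and not by p. Coding sequence made up 31.8% of the NOL9 and 41.3% of the POLR1A canonical transcript, against 65.2% over the 50 genes together.

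**Figure D2:**
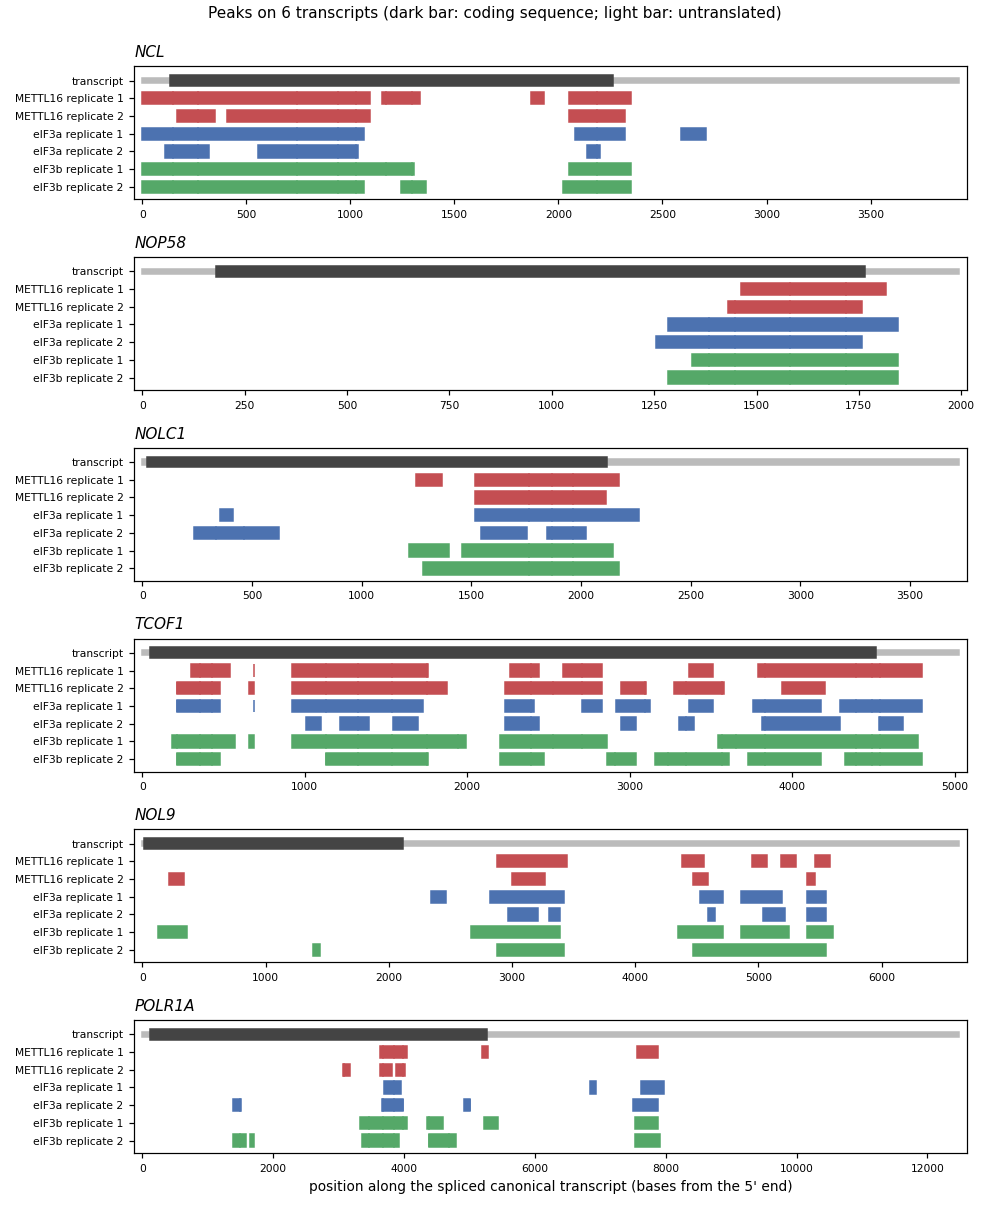
Peaks of the 6 lists (rows, colored by protein) along the spliced canonical transcripts of NCL, NOP58, NOLC1, TCOF1, NOL9 and POLR1A, in bases from the 5′ end, with the coding sequence as a dark bar. NCL, NOP58, NOLC1 and TCOF1 peaks lie mostly on coding sequence and recur at the same places, while the NOL9 peaks and, in 5 lists, a POLR1A peak lie in the 3′ UTR.

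Peaks on the 50 genes were coding peaks more often than peaks at large. Their centres fell in coding sequence in 82.1% and 90.0% of cases for METTL16 (86.0% ± 5.62, SD, n = 2), 76.5% and 79.7% for eIF3a (78.1% ± 2.26) and 81.4% and 82.4% for eIF3b (81.9% ± 0.732). Over all peaks the means were 64.7%, 57.3% and 59.2%. The transcripts themselves differed in the same way, since coding sequence made up 65.2% of the canonical bases of the 50 genes and 47.1% over all protein coding genes. Set against the coding share of the transcript each peak lay on, the coding share of peak bases was 1.16 and 1.25 times as high for METTL16 on members, 1.06 and 1.10 for eIF3a, and 1.08 and 1.12 for eIF3b. Over all peaks the same ratios were 1.16 and 1.24, 1.11 and 1.14, and 1.14 and 1.12, so on this measure members and all peaks were alike for METTL16 and members were lower in both eIF3a lists. The 3′ UTR held 16.7% and 8.57% of member peak centres for METTL16, 20.6% and 20.3% for eIF3a, and 16.7% in both eIF3b lists, against 28.0%, 38.3% and 33.2% over all peaks.

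Among proteins the coding share was higher for METTL16 than for eIF3a by 7.96 percentage points, with no overlap of replicates, and an exact two-sided permutation test gave p = 0.333, the smallest this design allows. Counted by peak bases in place of centres the coding shares were 82.9% and 90.3% for METTL16 and 79.6% and 87.5% for eIF3a, so the replicates overlapped and the means were 86.6% and 83.5%. Over all peaks METTL16 also had the higher share of centres, 64.7% against 57.3%. The METTL16 and eIF3b shares of centres overlapped, and the exact p was 0.667. Within the coding sequence the median member peak lay past the middle. The median position was 70% and 59.7% of the way from start to stop for METTL16, 67.9% and 60.4% for eIF3a, and 61.3% and 63.5% for eIF3b, against 50% to 54.1% over all peaks. The stop codon lay within 13 of 78 and 9 of 70 METTL16 peaks, 10 of 102 and 2 of 59 eIF3a peaks, and 20 of 102 and 15 of 108 eIF3b peaks. As shares these were 16.7% and 12.9%, 9.80% and 3.39%, and 19.6% and 13.9%, where all peaks gave 8.54% and 9.15%, 7.40% and 5.58%, and 9.46% and 8.71%. The second eIF3a list lay below its background and the other 5 above theirs.

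Member peaks were wider for eIF3b than for the other proteins. The median width in exonic bases was 210.5 and 210.0 for METTL16, 208.5 and 181 for eIF3a, and 270.5 and 269 for eIF3b. The eIF3b medians exceeded both METTL16 medians by 59.5 bases on average (exact p = 0.333, the smallest possible). Over all peaks the medians were 180 and 180 for METTL16, 180 and 210 for eIF3a, and 210 and 181 for eIF3b. There eIF3b also lay above METTL16, by less and in the second list by 1 base. More of the member peaks crossed a splice junction, 64.1% and 74.3% for METTL16, 61.8% and 54.2% for eIF3a, and 70.6% and 70.4% for eIF3b, against 38.0% to 45.8% over all peaks. The 50 genes also had a median of 15 exons, where all protein coding genes had 8 and genes with a peak 10, and the part of exon number in the difference was not tested.

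**Figure D3:**
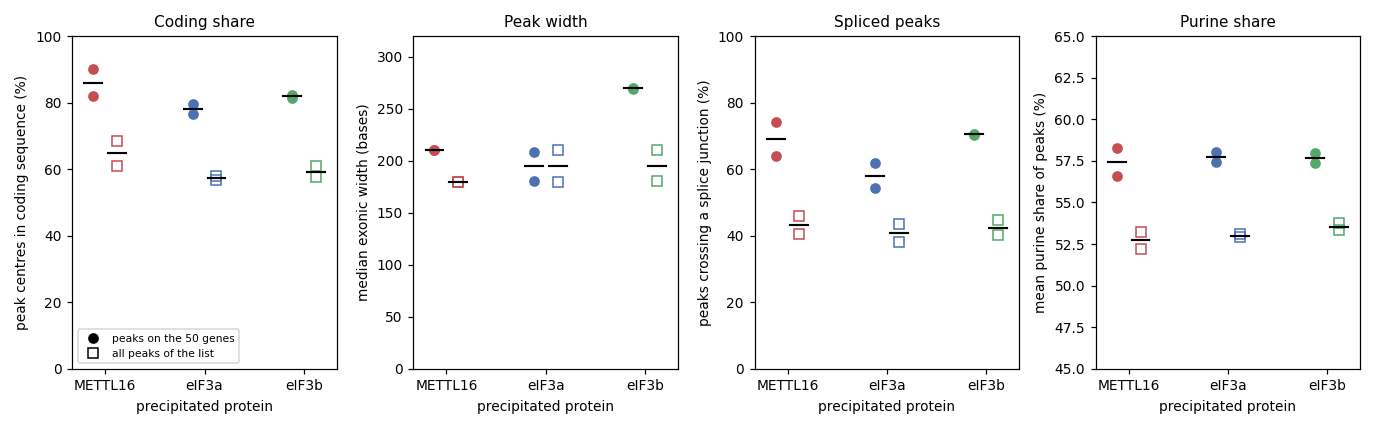
Share of peak centres in coding sequence, median exonic width, share of peaks crossing a splice junction and mean purine share, for peaks on the 50 genes (filled circles) and all peaks (open squares), by protein; each point is 1 list, bars are means of 2, and the purine axis starts at 45%. Members lie above all peaks in the coding, splice junction and purine panels, and in the width panel for METTL16, eIF3b and the first eIF3a list (208.5 against 180 bases), but not for the second (181 against 210).

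Peaks of different proteins overlapped in part on these transcripts. Of METTL16 member peaks 82.4% ± 10.3 (SD over 4 pairs of lists) overlapped an eIF3b peak by at least 1 base, where eIF3b peaks covered 21.0% of the exon bases of the same genes. The overlap is counted per peak and the covered share per base. A peak of many bases can touch another more often than that share, so the share here and below is not an expected overlap. With eIF3a the share was 56.9% ± 16, over 10.2% of exon bases, and 79.0% ± 5.60 of eIF3a peaks overlapped an eIF3b peak, over 20.2%. Over all peaks the 3 shares were 69.5%, 51.5% and 60.4%, at 18.7%, 14.5% and 16% of exon bases. In the other direction 56.7% of eIF3a and 51.7% of eIF3b member peaks overlapped a METTL16 peak, and 51.6% of eIF3b peaks an eIF3a peak, over 12.7%, 11.2% and 9.82% of exon bases. Over all peaks these were 37.1%, 41.1% and 50.4%, over 8.91%, 9.09% and 12.9%. The share of eIF3b peaks on eIF3a peaks was thus near that of all peaks. When 50% of the peak had to be covered, 43.6% of METTL16 peaks overlapped an eIF3a peak. Between replicates, 67.1% of METTL16 peaks overlapped a peak of the other METTL16 list, 60.4% of eIF3a peaks one of the other eIF3a list and 72% of eIF3b peaks one of the other eIF3b list, over 15.6%, 12% and 17.5% of exon bases. Over all peaks the replicate shares were 55.5%, 49.7% and 62.5%, over 12.9%, 13.6% and 15.6%. List pairs share lists, so the SD describes a range and not an error.

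Of the 20 genes in all 6 lists, 16 had bases that were under a peak in every list, 4387 bases in all, of which 93.5% were coding. TCOF1 held 720 such bases, NCL 690, NOLC1 390, RRP1B 332, NOP58 296, RRS1 270, MDN1 242, BOP1 240 and NOL9 212, and the other 7 genes 90 to 182 each. HEATR1, NOP14, PES1 and NOP2 had peaks in all lists but no base common to all of them.

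The shared bases were rich in purines. They held 63.4% purine, where the whole transcripts of the same 16 genes held 53.2% and their coding sequences 55.4%. The share was highest in NCL (72.8%), NOP58 (72%), MDN1 (67.8%), RRS1 (66.3%) and DKC1 (66.1%), and it exceeded that of the gene's own coding sequence in 12 of 16 genes. The exceptions were BMS1, NOP56, BOP1 and POLR1A at 48.9% to 53.8%. The 6-base sequence GAAGAA, read on the transcript strand with overlaps counted, occurred 169 times in the 16 transcripts and 37 of these were in shared bases, which is 21.9% of the occurrences in 5.31% of the sequence. NOP58 had 13 of its 18 copies in the shared bases, most of them in the stretch printed above, and NCL 7 of its 10, while BOP1 had no copy in its transcript.

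**Figure D4:**
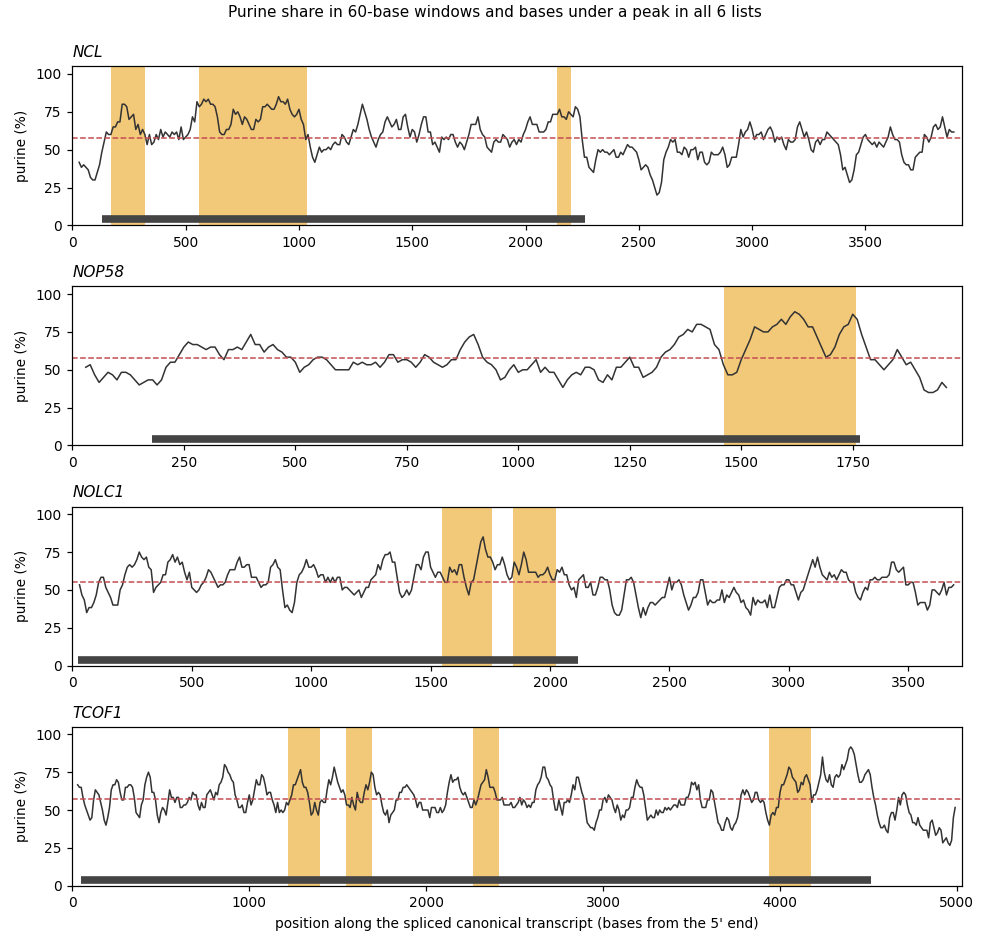
Purine share in windows of 60 bases along the spliced transcripts of NCL, NOP58, NOLC1 and TCOF1, with bases under a peak in all 6 lists shaded, the mean of the transcript dashed and the coding sequence as a bar. The NCL and NOP58 shading covers the highest purine stretches of the transcript, while the highest TCOF1 stretch, near the end of its coding sequence, is not shaded.

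Single lists showed the same. Member peaks held 58.3% and 56.6% purine for METTL16, 58.0% and 57.4% for eIF3a, and 57.4% and 58.0% for eIF3b, which was 3.68 ± 0.820, 3.73 ± 0.531 and 3.93 ± 0.162 percentage points (SD, n = 2) above the transcripts they lay on. Over all peaks the gap was 2.19, 2.25 and 2.71 points. Member transcripts also started higher, with a median of 54.0% purine against 50.6% over genes with a peak. GAAGAA was in 47.4% and 44.3% of METTL16 member peaks, 48.0% and 47.5% of eIF3a peaks, and 51.0% and 50.9% of eIF3b peaks, and in 17.4% to 25.2% of all peaks. Since member peaks were often wider, the density was also taken, which allows for width. Member peaks held 4.86 and 3.61 copies per kb for METTL16, 5.08 and 4.28 for eIF3a and 4.13 and 4.63 for eIF3b. Over all peaks it was 1.07 to 1.64. The density of the whole member transcripts was not set beside these values. How much of the difference lies in the transcripts and how much in the peaks was therefore not tested.

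Coding windows of 60 bases were then sorted by purine share, in genes with a peak in the list. In members, 9.43% and 15.6% of the windows under 50% purine were under a METTL16 peak, and 51.5% and 41.4% of those with 70% or more. For eIF3a the shares were 8.40% and 14.7% at the low end and 56.2% and 33.9% at the high end, and for eIF3b 16.4% and 14.8% against 68.0% and 71.9%. The share rose at each step in all 6 lists. Over all genes the same lists went from 13% to 36.6% and 17.6% to 26.4% for METTL16, from 14.6% to 43.0% and 22.1% to 31.4% for eIF3a, and from 19.8% to 50.9% and 15.0% to 50.4% for eIF3b, so the direction was not particular to the 50 genes. All 3 proteins gave it, no control-antibody list was used, and how much of it a control would show was not tested. The purine measures were chosen after the shared sequences had been seen, and windows of 1 gene are not independent.

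**Figure D5:**
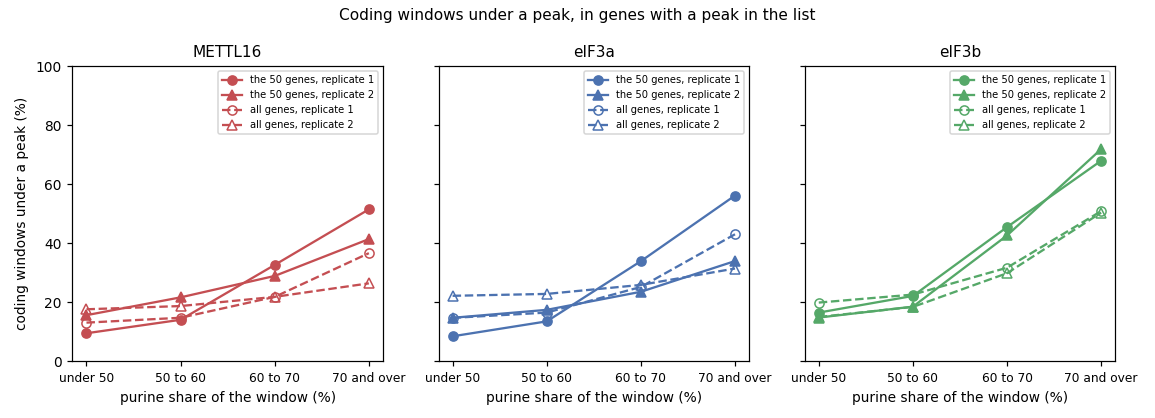
Share of 60-base coding windows whose middle base lay under a peak, by the purine share of the window, in the 50 genes (filled, solid) and all genes (open, dashed) with a peak in the list; circles are replicate 1 and triangles replicate 2. In members the share rises from 8.40% to 16.4% in the lowest class to 33.9% to 71.9% in the highest.

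The heptamer ACAGAGA lies in the known METTL16 substrates, U6 small nuclear RNA and the hairpins of MAT2A. On the transcript strand it was in 5 of 78 and 5 of 70 METTL16 member peaks (6.41% and 7.14%), 6 of 102 and 1 of 59 eIF3a peaks (5.88% and 1.69%), and 9 and 8 eIF3b peaks (8.82% and 7.41%). Over all peaks it was in 3.33% and 3.29%, 3.92% and 5.39%, and 4.10% and 4.53%. Member peaks with it were thus few for each protein, and eIF3b peaks held it as often as METTL16 peaks did. Per kb, member peaks held 0.219 and 0.228 copies for METTL16, 0.221 and 0.0603 for eIF3a, and 0.227 in both eIF3b lists. Over all peaks the values were 0.144 and 0.135, 0.173 and 0.164, and 0.150 and 0.183. None of its 13 copies in the 16 transcripts above lay in shared bases. As these bases are 5.31% of the sequence, so few copies cannot show an absence.

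The G+C content of the transcript differed with METTL16 peaks, as a description. The canonical transcripts of the 29 METTL16-bound members had a median G+C of 51.5% (lowest 40.8%, highest 65.6%), and the 10 with a peak in 1 METTL16 list 44% (37.7% to 64.2%). The 8 with an eIF3a or eIF3b peak and no METTL16 peak (GAR1, UTP4, UTP15, UTP20, WDR75, NOL11, LTV1 and BRIX1) had 41.0% (38.2% to 47.2%), and the 3 with no peak at all 55.1% (43.0% to 57.1%). The ranges of the first 3 sets overlapped. The METTL16 lists were also richer in G+C over all peaks, at 59.9% ± 1.27, against 53.4% ± 0.412 for eIF3a and 56.1% ± 2.80 for eIF3b, and its part in which members lacked METTL16 peaks was not tested.

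Of the 50 genes 8 carry small nucleolar RNAs in their introns (NOP56, NOP58, DKC1, NCL, WDR43, NOL11, TSR1 and GNL3), 16% against 1.35% of protein coding genes. METTL16 and eIF3a each bound 4 of these 8 and eIF3b bound 7, and all 3 proteins bound 4. Of the 42 genes without one, METTL16 bound 25, eIF3a 19 and eIF3b 30, and all 3 proteins bound 16. METTL16 thus bound a smaller share of the 8 than of the 42. Of genes with a peak in any list, 42.6%, 42.5%, 60.1% and 25.3% were called, and 8 genes are few to set beside these. Peaks were placed on exons, so they do not show reads of the intronic RNAs.

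The 91 further ribosome biogenesis genes that served as a comparison list, of which 90 had an annotated symbol, were bound less often, 36 by METTL16 (39.6%), 27 by eIF3a (29.7%), 48 by eIF3b (52.7%) and 17 by all 3 (18.7%). These shares lay above those of protein coding genes (22.9%, 22.8%, 32.2% and 13.6%). They lay below those of genes with a peak in any list (42.6%, 42.5%, 60.1% and 25.3%). Of their 4 groups, the 14 genes of the exosome had the fewest, with 3, 2 and 4 bound. The highest by p were RSL1D1, PELP1, NOP53, FCF1 and NOL7, at median percentiles of 99.8, 97.8, 95.2, 90.4 and 88.5, and FCF1 had a median fold of 23.6, above every member except NOL9. The difference between the lists was not tested, since both were compiled with results of these data known.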

How the data were processed

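Binding of 3 proteins to RNA in HepG2 cells (METTL16, eIF3a and eIF3b) was analysed from 6 deposited peak lists, 1 per precipitate and not pooled. Libraries were made from RNA depleted of ribosomal RNA with a stranded kit and sequenced on an Illumina NovaSeq. The authors aligned with STAR (genome GRCh38), and exomePeak with its defaults compared each precipitate with input. Versions, gene annotation, the handling of reads with several matches and which input served which list are not given in the sources used here. The deposited columns used were the p-value, a score equal to the log10 of that p-value, the fold enrichment over input (a ratio) and the block structure of each peak. No counts were given, so the depth is unknown.

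The 50 genes and all lists were chosen with earlier results of these data known. Peaks were taken by the deposited gene name, placed on GENCODE 44 exons with at least 50% of their bases, and assigned to a region by their centre, the stop codon counting with the 3′ UTR. A gene's percentile by p or fold ranked its best peak within the list, and medians over lists counted a list without a peak as 0. Taking the gene from the position instead gave the same counts of bound members. Values are means with SD over 2 lists, and proteins were compared with exact two-sided permutation tests over lists. Full values were given for BOP1, PES1, WDR12, FBL, NPM1 and NCL, the 10 members with the highest median percentile by p, the 5 in the fewest lists, and those in both lists of 1 or 2 proteins and no list of another; other genes were named after their values were seen. Analyses used Python 3.11.15, pandas 2.3.3, numpy 2.4.6 and scipy 1.17.1. Placement, width and overlap were tested on simulated data, in which 500 of 500 peaks were recovered. Alternatives kept peaks enriched 4-fold or more or each list's 5000 best peaks by p, or took either replicate in place of both, another measure of region or overlap, and leaving out each list. One marker list and 1 sequence are not reported here.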

Additional observations from a re-analysis of the deposited data

How the results depend on the processing

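Across 16 results and 99 alternative values, 64 stayed within the spread of the lists or within 1.5 times the count and 35 moved. The order of proteins was not kept throughout: the median width of METTL16 peaks, 15.5 bases above that of eIF3a peaks in the report, fell below it in the first 2 settings here, and by peak bases the coding share of eIF3a (83.5%) passed that of eIF3b (81.6%). Keeping only peaks with a fold enrichment of at least 4 left 8 members bound by METTL16, 3 by eIF3a, 11 by eIF3b and 2 by all 3 proteins. The coding share then became 71.5%, 50% and 68.2% and the median width 360, 451 and 471 bases for METTL16, eIF3a and eIF3b, with overlaps of 22.9% (METTL16 on eIF3a) and 60.6% (METTL16 on eIF3b). With the 5000 peaks of smallest p per list, eIF3a bound 9 members and all 3 proteins 7, the coding share was 87.9% for eIF3a and 89.1% for eIF3b, and the median width 330, 373 and 447 bases.

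A peak in either replicate gave 43 members for eIF3a and 36 for all 3 proteins. Leaving out 1 eIF3a list gave 24 or 42 members for eIF3a, 24 without replicate 1 and 42 without replicate 2. Taking the best peak per gene gave coding shares of 80.4% for eIF3a and 88.0% for eIF3b and widths of 300, 284 and 409 bases. Counting bases gave 83.5% coding for eIF3a, and requiring 50% of a peak gave an overlap of 73.1% for eIF3a on eIF3b. The cause of these shifts was not tested, beyond the loss of weak peaks that the first 2 settings impose.

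Replicate numbers are shared between the proteins but nothing says that they mark a batch, so they do not pair the lists. With the replicate block, comparing only lists of the same number, overlaps were 59.9% for METTL16 on eIF3a, 82.4% for METTL16 on eIF3b and 78.2% for eIF3a on eIF3b.

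The purine gap between member peaks and transcripts, whose alternatives were chosen after seeing the data, was 2.58, 0.818 and 3.61 percentage points at a fold of at least 4, and 5.69 for eIF3a and 5.75 for eIF3b with 5000 peaks. In coding peaks against coding sequence it was 3.35 for eIF3b. Depth could not be weighed, as no counts were at hand.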
